A study of Arabidopsis thaliana with 8 samples.

Results

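The genes described here encode the enzymes that make jasmonate from linolenic acid as far as the reduction of OPDA (oxo-phytodienoic acid). They are 4 lipoxygenases (LOX2, LOX3, LOX4 and LOX6), allene oxide synthase (AOS), 4 allene oxide cyclases (AOC1, AOC2, AOC3 and AOC4) and OPDA reductase 3 (OPR3). They were chosen by locus for their place in the pathway, with earlier results of these data known, and were 10 of the 36917 loci counted. All 10 were among the 20251 genes tested, which reached 10 normalized counts in 2 or more libraries. A normalized count is a gene's read count divided by 1 size factor per library, as the authors deposited it.

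Total RNA was sequenced from 5-day-old Arabidopsis thaliana seedlings grown in continuous light of 100 µmol photons per square metre and second at 22 °C, on Murashige and Skoog (MS) medium that held 1% sucrose in every group. The groups were irx3-2 on MS with 50 µg/ml lincomycin, Col-0 on MS with 50 µg/ml lincomycin, irx3-2 on MS and Col-0 on MS, each with 2 libraries. Lincomycin is an antibiotic that stops protein synthesis inside plastids. Col-0 is the wild type, and irx3-2 is named for the IRX3 gene, whose product CESA7 makes cellulose in secondary walls. The series title asks whether a secondary wall defect lessens what lincomycin does to early chloroplast development.

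Jasmonates are hormones made from membrane lipids and are known for their part in wound responses, defence and male fertility. In plastids, lipoxygenases add oxygen to linolenic acid, AOS turns the product into an unstable allene oxide, and allene oxide cyclase closes its ring to give OPDA. OPDA then moves to peroxisomes, where OPR3 reduces it and beta-oxidation shortens its side chain to jasmonic acid.

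The libraries held 15032240 to 19488440 counted reads. Reads of plastid-encoded genes made up 19.7% ± 1.38 of the reads in irx3-2 on lincomycin and 20.0% ± 0.608 in Col-0 on lincomycin, against 56.6% ± 2.02 in irx3-2 on MS and 54.6% ± 0.643 in Col-0 on MS (SD, n = 2 each). CESA7 transcript was present in the mutant, at 294 and 401 normalized counts in irx3-2 on lincomycin against 222 and 210 in Col-0 on lincomycin, and at 712 and 711 in irx3-2 on MS against 265 and 278 in Col-0 on MS. The labels do not give the lesion, so this level does not check the genotype. Nor do they say that the 2 libraries within each group were made from different batches of plants, so p-values measure the spread between these libraries, which may be technical.

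The genes lie on 4 chromosomes, and 3 of the cyclase genes stand in a row. AOC1 (AT3G25760, chr3:9403779-9405338), AOC2 (AT3G25770, chr3:9406669-9408071) and AOC3 (AT3G25780, chr3:9409160-9411090) lie on the plus strand of chromosome 3, with 1330 bases between AOC1 and AOC2 and 1088 bases between AOC2 and AOC3 and 0 protein-coding genes between them (TAIR10.1 assembly and RefSeq annotation). AOC4 (AT1G13280) is at chr1:4547388-4548894. The coding sequences of AOC1 and AOC2 were 90.3% identical, those of AOC1 and AOC3 81.7% and those of AOC2 and AOC3 82.0%, while AOC4 was 69.7% to 77.6% identical to the others. The longest identical coding run was 73 bases between AOC1 and AOC3, 50 between AOC2 and AOC3 and 47 between AOC1 and AOC2. A stretch of 60 coding bases is shown, the one in which AOC1, AOC3 and AOC4 together differ least from AOC2. It is read on the plus strand within 1 exon of each gene, at chr3:9404669-9404728, chr3:9407403-9407462, chr3:9409973-9410032 and chr1:4548116-4548175, and capitals mark bases unlike AOC2.
AOC1: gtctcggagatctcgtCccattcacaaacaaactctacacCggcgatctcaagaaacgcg
AOC2: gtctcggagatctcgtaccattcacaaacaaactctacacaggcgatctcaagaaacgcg
AOC3: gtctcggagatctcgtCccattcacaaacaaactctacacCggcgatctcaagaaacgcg
AOC4: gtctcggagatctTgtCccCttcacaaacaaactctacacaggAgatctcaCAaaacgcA
AOC1 and AOC3 each differed from AOC2 at 2 of the 60 bases and had the same bases as each other, and AOC4 differed from AOC2 at 7. Over whole exons the genes are distinct: of all stretches of 50 exon bases, 2.20% in AOC1, 1.60% in AOC3 and 0.0832% in AOC2 also occur elsewhere in the genome, and none in AOC4. How the authors counted reads that fit several copies is not given in the sources used here, so the low levels of AOC1 and AOC3 beside AOC2 are uncertain to that extent. Among the lipoxygenases 0.621% of such stretches in LOX6 and none in LOX2, LOX3 and LOX4 occur elsewhere, and LOX3 and LOX4 were the closest pair, with 80.05% identical coding bases. By the RefSeq gene table none of the 10 genes overlaps another gene.

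The sequences just upstream of 5 of the genes are shown because these genes stand at the ends of the lincomycin response described below: LOX2, AOS and AOC2 had the largest falls, and LOX6 and AOC4 did not pass the test. Each window is the 250 bases before the annotated start of transcription, read 5′ to 3′ on the gene's strand, at chr3:16524995-16525244 (plus strand), chr5:17099596-17099845 (minus strand), chr3:9406419-9406668 (plus strand), chr1:25319554-25319803 (plus strand) and chr1:4547138-4547387 (plus strand) of TAIR10.1. Capitals mark a G-box (CACGTG) or a close relative (CACATG or AACGTG), searched on both strands.
LOX2: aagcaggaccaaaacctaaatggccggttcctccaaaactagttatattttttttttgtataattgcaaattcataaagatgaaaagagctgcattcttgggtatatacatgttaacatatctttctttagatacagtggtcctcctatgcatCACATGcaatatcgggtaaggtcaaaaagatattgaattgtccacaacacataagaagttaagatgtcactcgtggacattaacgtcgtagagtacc
AOS: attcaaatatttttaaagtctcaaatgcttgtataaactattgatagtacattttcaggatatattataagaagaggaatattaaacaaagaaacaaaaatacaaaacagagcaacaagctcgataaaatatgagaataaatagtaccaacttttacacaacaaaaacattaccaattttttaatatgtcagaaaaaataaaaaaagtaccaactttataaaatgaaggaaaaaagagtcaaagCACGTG
AOC2: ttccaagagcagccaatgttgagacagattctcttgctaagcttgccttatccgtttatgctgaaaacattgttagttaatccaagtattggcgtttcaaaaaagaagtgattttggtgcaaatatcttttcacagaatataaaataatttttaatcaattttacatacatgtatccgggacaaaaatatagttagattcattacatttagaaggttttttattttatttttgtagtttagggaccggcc
LOX6: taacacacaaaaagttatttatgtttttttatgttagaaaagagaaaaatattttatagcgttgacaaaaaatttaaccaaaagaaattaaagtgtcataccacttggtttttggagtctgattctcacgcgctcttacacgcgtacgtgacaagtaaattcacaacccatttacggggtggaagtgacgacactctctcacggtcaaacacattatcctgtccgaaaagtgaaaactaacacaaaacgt
AOC4: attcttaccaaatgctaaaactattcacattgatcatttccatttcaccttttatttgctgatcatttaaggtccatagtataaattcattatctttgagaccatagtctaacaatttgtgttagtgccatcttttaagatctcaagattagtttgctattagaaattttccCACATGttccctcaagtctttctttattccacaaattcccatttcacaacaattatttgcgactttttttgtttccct
AOS carried CACGTG in the last 6 bases before its start, a hexamer found in 6.488% of the 27437 windows of this length upstream of annotated genes. CACATG, present in 11.09% of all windows, was found in LOX2, LOX3 and AOC4, and AACGTG, present in 7.541%, in LOX4 and AOC1. The core of the W-box, TTGAC, was in 7 of the 10 windows against 44.93% of all windows. The GCC-box, GCCGCC (1.87% of all windows), was in 0 of the 10, and GATAAG, the I-box of light-regulated genes (12.29%), was in AOC2 only. CCAATC, which is bound by GLK factors of chloroplast development (10.23%), was in OPR3 only. AOC2 and AOC1 shared a run of 19 upstream bases, tgtagtttagggaccggcc, which began 19 bases before the start of AOC2 and 117 bases before that of AOC1. These matches describe the letters in the windows and show no binding, and the CACATG hexamer occurred both in LOX2, which fell with lincomycin, and in AOC4, which was not called.

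On MS 1 lipoxygenase gene and 1 cyclase gene gave most of the transcript level of their families. Per kilobase of exon, the scale on which genes can be compared, LOX2 had the highest level of the 10 genes, with 4951 ± 545 normalized counts per kb in irx3-2 on MS and 2919 ± 376 in Col-0 on MS (SD, n = 2 each). AOC2 followed at 2581 ± 169 per kb in irx3-2 and 1692 ± 326 in Col-0, and AOS at 1220 ± 188 per kb in irx3-2 and 745 ± 38.1 in Col-0. In both genotypes on MS the remaining 7 genes were below 300 per kb in every library. LOX2, the lipoxygenase that makes much of the jasmonate of wounded leaves, gave 95.5% ± 0.984 of the summed level of the 4 lipoxygenases per kb in irx3-2 on MS and 93.1% ± 0.581 in Col-0 on MS. AOC2 gave 86.0% ± 1.79 of the summed cyclase level in irx3-2 on MS and 83.9% ± 0.0173 in Col-0 on MS.

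On lincomycin the order was different, with LOX6 and AOC4 at the top. AOC4 had 205 ± 23.5 and LOX6 198 ± 7.87 normalized counts per kb in irx3-2 on lincomycin, and AOC4 had 169 ± 24.2 and LOX6 178 ± 4.44 in Col-0 on lincomycin, so the 2 genes did not differ beyond their spread. OPR3 came next at 118 ± 24.4 per kb in irx3-2 and 126 ± 5.13 in Col-0, and AOS followed at 61.3 ± 18.5 and 67.4 ± 2.71. AOC3 was the lowest gene in both lincomycin groups, with 4.11 ± 0.240 per kb in irx3-2 and 4.10 ± 4.23 in Col-0. LOX6, a lipoxygenase known from vascular tissue and roots, made up 73.1% ± 1.80 of the lipoxygenase sum in irx3-2 on lincomycin and 70.4% ± 3.91 in Col-0 on lincomycin, against 3.50% ± 0.821 in irx3-2 on MS and 5.13% ± 0.261 in Col-0 on MS. AOC4 made up 79.7% ± 0.956 of the cyclase sum in irx3-2 on lincomycin and 79.9% ± 4.12 in Col-0 on lincomycin, against 8.08% ± 1.25 in irx3-2 on MS and 8.01% ± 0.196 in Col-0 on MS. The share of LOX2 was 17.7% ± 2.06 in irx3-2 on lincomycin and 13.4% ± 1.77 in Col-0 on lincomycin, and that of AOC2 was 3.97% ± 0.990 and 4.57% ± 2.29. The family sums differed as well. The lipoxygenases summed to 271 ± 4.07 normalized counts per kb in irx3-2 on lincomycin against 5183 ± 517 in irx3-2 on MS, and to 252.5 ± 7.71 in Col-0 on lincomycin against 3135 ± 385 in Col-0 on MS. The cyclases summed to 257 ± 32.6 in irx3-2 on lincomycin against 3000.2 ± 135 in irx3-2 on MS, and to 211 ± 19.4 in Col-0 on lincomycin against 2016 ± 388 in Col-0 on MS.

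**Figure D1:**
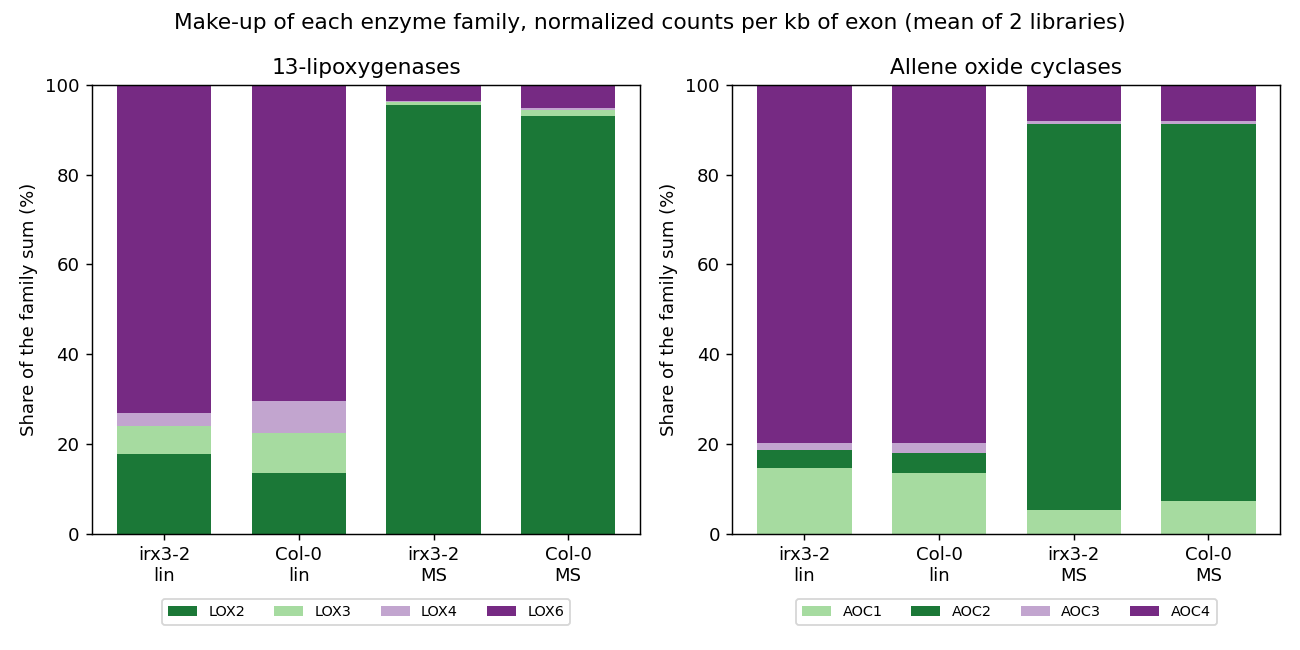
Stacked bars of the share of each gene (%, mean of 2 libraries) in the summed normalized counts per kb of exon of the 4 lipoxygenases (left) and the 4 allene oxide cyclases (right), for irx3-2 and Col-0 on lincomycin (lin) and on MS. LOX2 and AOC2 fill most of the bars on MS, with 93.1% and 83.9% in Col-0, and LOX6 and AOC4 most of those on lincomycin, with 70.4% and 79.9% in Col-0.

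The effect of lincomycin was measured within each genotype with limma on log2(normalized count + 1), with p-values adjusted by Benjamini-Hochberg over the 20251 genes. In irx3-2, 7 of the 10 genes were lower on lincomycin and 0 were higher, where 18.0% of all genes tested were called lower and 15.8% higher. In Col-0, 5 of 10 were lower and 0 were higher, where 17.2% of all genes were called lower and 12.0% higher. The 10 genes were chosen with earlier results of these data known, so these counts are no independent test of an excess. The median log2 change of the 10 genes was −1.48 in irx3-2 and −1.39 in Col-0, and that of all genes tested was 0.04 in irx3-2 and 0.02 in Col-0. A lower level in seedlings does not tell fewer cells of a type from less RNA per cell. The 5 markers of green tissue moved the same way, and all 5 fell in both genotypes. Their median log2 change was −7.47 in irx3-2 and −6.93 in Col-0, and the smallest fall was −3.731 and −3.395. Their summed level was 17676 to 18519 normalized counts in irx3-2 on lincomycin, against 385516 to 528797 in irx3-2 on MS. In Col-0 it was 17055 to 18346 on lincomycin, against 327084 to 401551 on MS. RBCS1A, which fell least, made up most of the lincomycin sums, with means of 16366 in irx3-2 and 15955 in Col-0. Of 5 root markers, 3 fell in irx3-2 and 4 in Col-0, and their sums were 61.0 to 108 and 91.0 to 101.8 on lincomycin, against 256 to 393 and 429 to 806 on MS. The part of these tissues in the changes of the pathway was not tested.

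The largest falls among the 10 genes were in LOX2 and AOC2. LOX2 (AT3G45140, chr3:16525245-16529352) had 167 and 144 normalized counts in irx3-2 on lincomycin against 17353.5 and 14849 in irx3-2 on MS, and 97.7 and 123 in Col-0 on lincomycin against 10358 and 8627 in Col-0 on MS. Every lincomycin library lay far below every MS library, and none overlapped. The log2 change of LOX2 was −6.68 ± 0.14 in irx3-2 (limma adjusted p = 3.46e-10) and −6.42 ± 0.14 in Col-0 (adjusted p = 5.31e-10), that is 103-fold and 85.5-fold lower.

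AOC2 had 9.94 and 16.99 normalized counts in irx3-2 on lincomycin against 3200.0 and 3511 in irx3-2 on MS, and 15.9 and 8.61 in Col-0 on lincomycin against 2499 and 1900.1 in Col-0 on MS. The lincomycin and MS libraries did not overlap. Its log2 change was −7.90 ± 0.30 in irx3-2 (limma adjusted p = 1.12e-08) and −7.42 ± 0.30 in Col-0 (adjusted p = 2.09e-08), a fall of 239-fold and 171-fold. The low end rests on 40 reads in irx3-2 on lincomycin (exact 95% Poisson interval 28.6 to 54.5) and 41 in Col-0 on lincomycin (29.4 to 55.6), intervals that cover counting error only.

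AOS (AT5G42650, chr5:17097564-17099595, minus strand), the only gene here for its step, had 151 and 98.0 normalized counts in irx3-2 on lincomycin against 2748 and 2209 in irx3-2 on MS, and 133 and 141 in Col-0 on lincomycin against 1569 and 1459 in Col-0 on MS. The lincomycin groups overlapped each other and lay far below both MS groups. The log2 change of AOS was −4.33 ± 0.19 in irx3-2 (limma adjusted p = 3.56e-08) and −3.46 ± 0.19 in Col-0 (adjusted p = 2.34e-07). AOC1 fell less, with 40.5 and 49.7 normalized counts in irx3-2 on lincomycin against 198 and 184 in irx3-2 on MS, and 31.2 and 36.9 in Col-0 on lincomycin against 199 and 154 in Col-0 on MS. Its log2 change was −2.07 ± 0.25 in irx3-2 (limma adjusted p = 9.57e-05) and −2.34 ± 0.25 in Col-0 (adjusted p = 4.29e-05). AOC1 and AOC2 thus differed widely in the size of their fall although their coding sequences are the most alike of the pairs compared. LOX2, AOS, AOC1 and AOC2 passed the test under all 17 alternative settings in both genotypes.

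**Figure D2:**
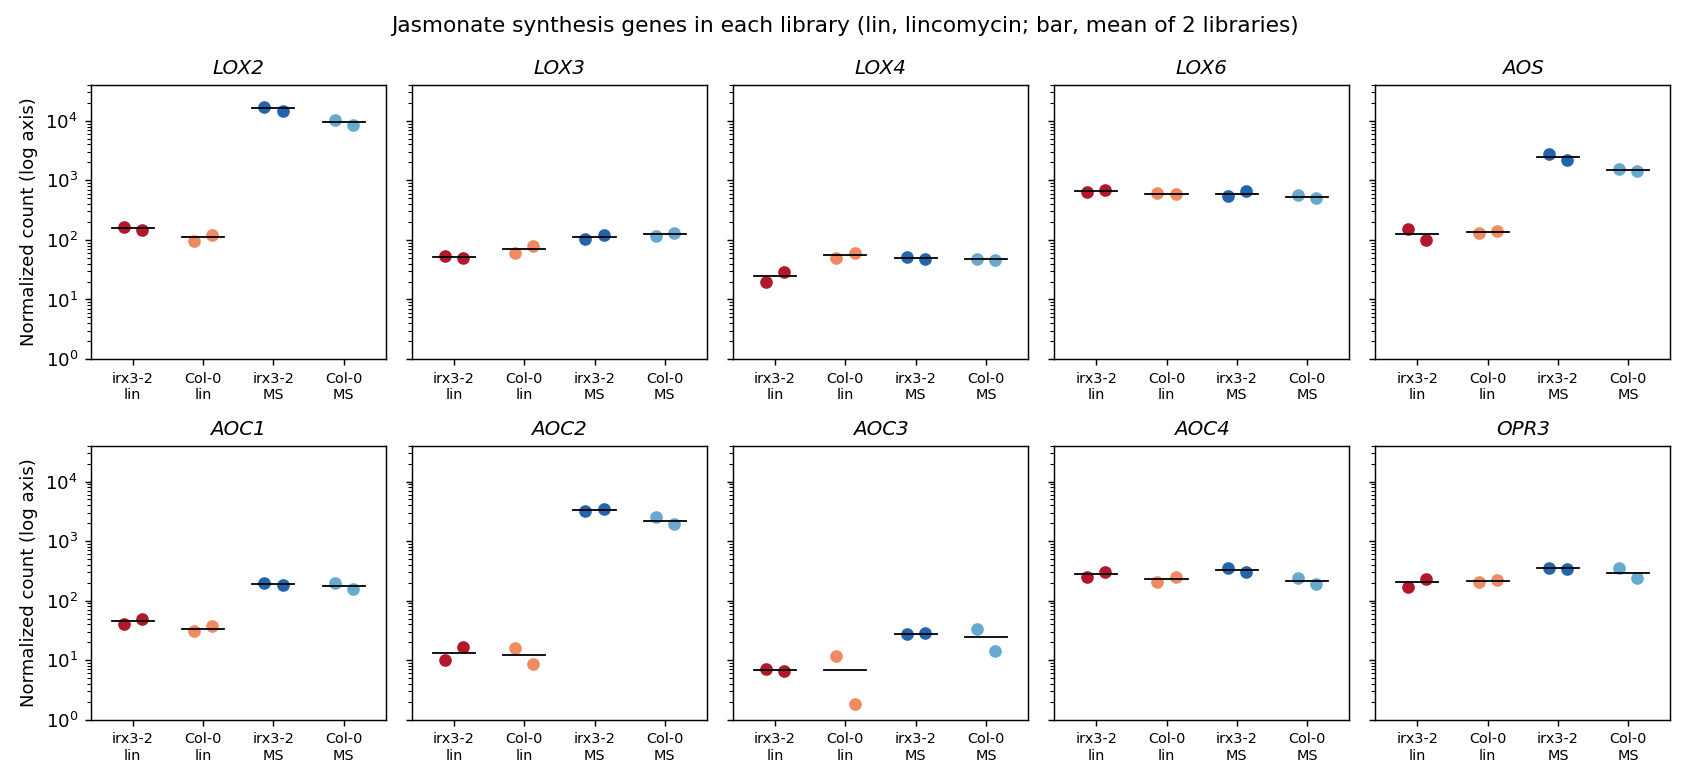
Normalized counts (log axis) of the 10 genes in each library, in irx3-2 and Col-0 on lincomycin (lin) and on MS; points are libraries and bars are means of 2. LOX2, AOS, AOC1 and AOC2 lie lower in every lincomycin library than in any MS library. So do LOX3, AOC3 and OPR3, with a narrow gap, while LOX6 stays between 508 and 681 in all 8 libraries.

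LOX3 and LOX4 are the lipoxygenases known for their part in male fertility, and they were weakly expressed. LOX3 (AT1G17420, chr1:5977323-5981521) had 54.6 and 50.3 normalized counts in irx3-2 on lincomycin against 101.9 and 120.3 in irx3-2 on MS, and 60.6 and 80.5 in Col-0 on lincomycin against 118 and 132 in Col-0 on MS. Both lincomycin groups lay below both MS groups. The log2 change was −1.06 ± 0.25 in irx3-2 (limma adjusted p = 0.00691) and −0.83 ± 0.25 in Col-0 (adjusted p = 0.0273). The call in Col-0 was lost, among other settings, without any 1 of the 4 Col-0 libraries (adjusted p 0.0524 to 0.210) and with scaling by the total of nuclear genes (log2 change −0.33, adjusted p = 0.279). In the authors' deposited table the adjusted p of LOX3 in Col-0 was 0.0690.

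LOX4 (AT1G72520, chr1:27308513-27312756) had 19.9 and 28.8 normalized counts in irx3-2 on lincomycin against 52.3 and 47.8 in irx3-2 on MS, and 50.6 and 59.6 in Col-0 on lincomycin against 47.5 and 46.6 in Col-0 on MS. The irx3-2 lincomycin libraries were lower than the other 6. The log2 change was −1.03 ± 0.33 in irx3-2 (limma adjusted p = 0.0320) and 0.22 ± 0.33 in Col-0 (adjusted p = 0.660). The call in irx3-2 rested on 72 reads on lincomycin and 65 on MS and held under 7 of 17 alternative settings. It was lost, among other settings, without irx3-2 lincomycin replicate 2 (log2 change −0.78, adjusted p = 0.206), without either irx3-2 MS library (0.0820 and 0.0592) and without either Col-0 lincomycin library (0.0606 and 0.0624), and in the authors' deposited table its adjusted p was 0.107.

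LOX6 (AT1G67560, chr1:25319804-25324581) was the steadiest lipoxygenase. It had 644 and 681 normalized counts in irx3-2 on lincomycin against 541 and 657 in irx3-2 on MS, and 604 and 583 in Col-0 on lincomycin against 562 and 508 in Col-0 on MS. The irx3-2 groups overlapped and the Col-0 groups lay close together. The log2 change was 0.15 ± 0.13 in irx3-2 (limma adjusted p = 0.386) and 0.15 ± 0.13 in Col-0 (adjusted p = 0.411). AOC4 had 253 and 297 normalized counts in irx3-2 on lincomycin against 350 and 299 in irx3-2 on MS, and 204 and 250.2 in Col-0 on lincomycin against 242 and 191 in Col-0 on MS. Its log2 change was −0.24 ± 0.18 in irx3-2 (limma adjusted p = 0.340) and 0.07 ± 0.18 in Col-0 (adjusted p = 0.804). These values depend on the scale: scaled by the total of nuclear genes, which moved the median log2 change of all genes to 0.43 in irx3-2 and 0.52 in Col-0, LOX6 was called higher in both (log2 change 0.55, adjusted p = 0.00614, and 0.65, adjusted p = 0.00225) and AOC4 in Col-0 (0.58, adjusted p = 0.0335), each near that median.

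AOC3, the last gene of the row of cyclases, had few reads. It had 7.10 and 6.53 normalized counts in irx3-2 on lincomycin against 27.5 and 28.3 in irx3-2 on MS, and 11.8 and 1.84 in Col-0 on lincomycin against 33.7 and 14.5 in Col-0 on MS. Its log2 change was −1.89 ± 0.74 in irx3-2 (limma adjusted p = 0.0723) and −1.95 ± 0.74 in Col-0 (adjusted p = 0.0732). Behind these values stand 20 reads in irx3-2 on lincomycin against 36 in irx3-2 on MS, and 23 in Col-0 on lincomycin against 32 in Col-0 on MS, so this depth leaves the size of the change uncertain. Without 1 library the change in Col-0 ran from −3.03, without Col-0 lincomycin replicate 1 and called (limma adjusted p = 0.0276), to −0.86, without Col-0 lincomycin replicate 3 and not called (adjusted p = 0.469). In irx3-2 AOC3 was called under 3 alternatives, namely without Col-0 lincomycin replicate 3 (adjusted p = 0.0389), with a pseudocount of 5 (0.0411) and with only the libraries compared (0.0348). OPR3 (AT2G06050, chr2:2359114-2362375, minus strand), the peroxisomal reductase, had 172.5 and 231 normalized counts in irx3-2 on lincomycin against 350 and 345 in irx3-2 on MS, and 208 and 221 in Col-0 on lincomycin against 348 and 244 in Col-0 on MS. The groups did not overlap in either genotype. Its log2 change was −0.80 ± 0.20 in irx3-2 (limma adjusted p = 0.0103) and −0.44 ± 0.20 in Col-0 (adjusted p = 0.121). The irx3-2 call was lost without irx3-2 lincomycin replicate 2 (adjusted p = 0.118) and with scaling by the total of nuclear genes (adjusted p = 0.153), which also gave 0.06 in Col-0. In Col-0 OPR3 was called without Col-0 MS replicate 3 (log2 change −0.70, adjusted p = 0.0332).

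Between the genotypes on lincomycin, 0 of the 10 genes passed limma's test, where 5.68% of all genes tested were called in either direction. At an unadjusted p below 0.05 there were 2, LOX2 and LOX4, and the count of adjusted calls was 1 with edgeR and 0 with DESeq2. Over all genes tested on lincomycin, edgeR called 1465 and DESeq2 1444. The share of all genes at the unadjusted p is not given here, so the unadjusted count shows no excess. LOX2, with 167 and 144 normalized counts in irx3-2 against 97.7 and 123 in Col-0 on lincomycin, had a log2 difference of 0.50 ± 0.14 (limma adjusted p = 0.0762). The authors' deposited table gave LOX2 on lincomycin an adjusted p of 0.0394, and 1434 of all its genes were below 0.05. LOX4, whose irx3-2 libraries had 19.9 and 28.8 normalized counts against 50.6 and 59.6 in Col-0, had a log2 difference of −1.17 ± 0.33 (limma adjusted p = 0.0665), and it was the gene called by edgeR (adjusted p = 0.0478). Both LOX2 and LOX4 were called without either irx3-2 MS library, which enters the fit only through the shared spread (adjusted p 0.0451 to 0.0490). The log2 differences of the other 8 genes on lincomycin were between −0.41, for LOX3, and 0.39, for AOC1. The median of the 10 genes was 0.15, against 0.01 for all genes tested.

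On MS, too, 0 of the 10 genes passed limma's test between irx3-2 and Col-0, where 0.217% of all genes tested were called. At an unadjusted p below 0.05 there were 3, LOX2, AOS and AOC4, and the adjusted calls were 1 with edgeR and 3 with DESeq2. Over all genes tested on MS, edgeR called 59 and DESeq2 136. The share of all genes at the unadjusted p is not given here, so the unadjusted count shows no excess. LOX2 had a log2 difference of 0.76 ± 0.14 (limma adjusted p = 0.0843), with an adjusted p of 0.0424 by edgeR and 3.65e-05 by DESeq2. AOS had a log2 difference of 0.70 ± 0.19 (limma adjusted p = 0.191, and 0.00996 by DESeq2). AOC2 had a log2 difference of 0.62 ± 0.30 (limma adjusted p = 0.392, and 0.0359 by DESeq2). In the authors' deposited table these 3 were also the ones of the 10 past 0.05, and over all genes there were 148. Their adjusted p there was 1.08e-05 for LOX2, 0.0120 for AOS and 0.0348 for AOC2. Whether these 3 genes are called thus depends on the test used. AOC4 differed by 0.59 ± 0.18 (limma adjusted p = 0.241), and the log2 differences of the other 6 genes were between −0.17 and 0.32. The median of the 10 genes on MS was 0.28, against −0.01 for all genes tested. Summed seed markers also stood apart by genotype, at 711 to 944 normalized counts in irx3-2 on lincomycin against 62.1 to 111 in Col-0 on lincomycin, and at 556 to 894 in irx3-2 on MS against 105 to 133 in Col-0 on MS. Of these 3 markers, 3 were called higher in irx3-2 on lincomycin and 0 on MS, and 1 was at 0 in both Col-0 lincomycin libraries. Summed xylem markers were at 894 to 921 in irx3-2 on lincomycin against 1158 to 1180 in Col-0 on lincomycin, and at 1287 to 1297 in irx3-2 on MS against 1708 to 1754 in Col-0 on MS. Summed phloem markers were at 2562 to 2908 in irx3-2 on lincomycin against 3680 to 3804 in Col-0 on lincomycin. On MS they overlapped, at 3193 to 3432 in irx3-2 and 2927 to 3283 in Col-0. The root markers given above were lower in irx3-2 than in Col-0 on MS and overlapped on lincomycin. The sums of green tissue markers given above overlapped between genotypes on both media. On lincomycin, 2 of 3 phloem and 2 of 5 green tissue markers were called lower in irx3-2, where 5.68% of all genes were called. On MS 0 of either were called, and 0 xylem or root markers on either medium. The part of these tissues in the differences of the pathway was not tested.

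**Figure D3:**
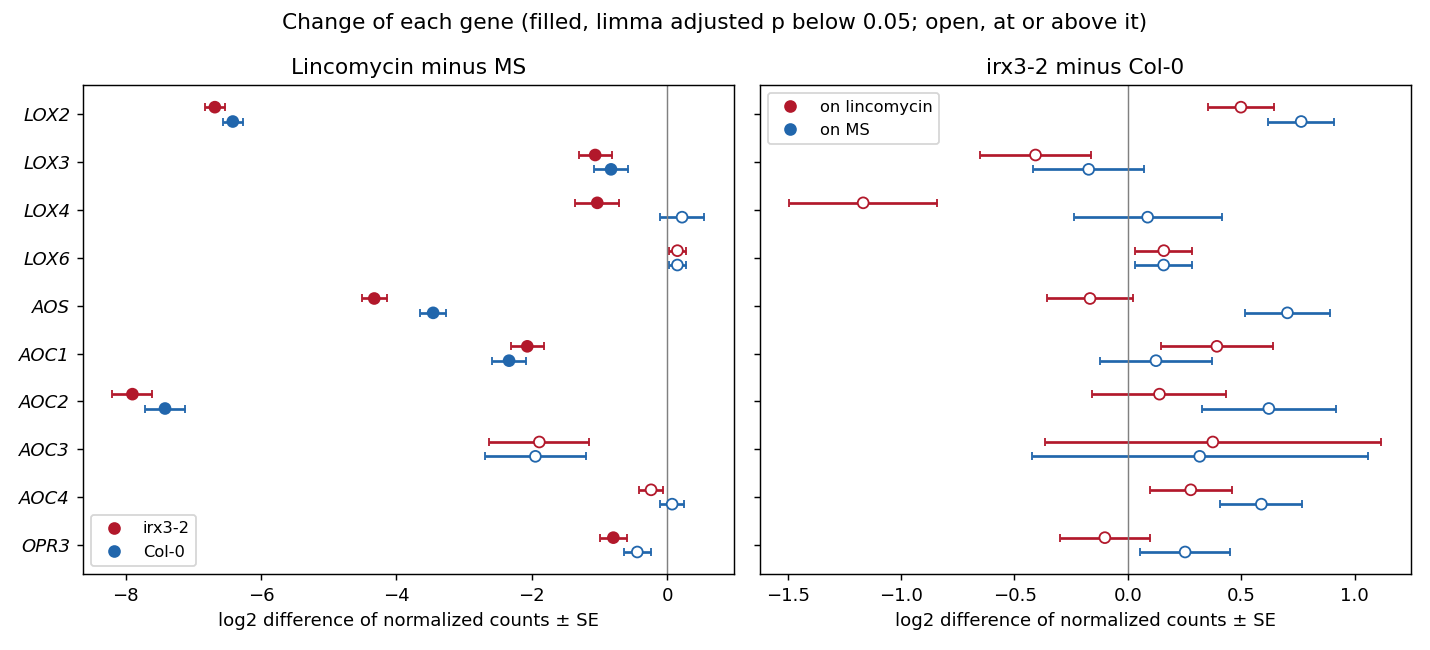
Log2 differences of the 10 genes with standard errors: lincomycin minus MS in irx3-2 and in Col-0 (left) and irx3-2 minus Col-0 on lincomycin and on MS (right); the 2 panels have different scales. Filled points passed limma's adjusted p of 0.05: 7 genes in irx3-2 and 5 in Col-0 on the left, and 0 on the right.

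Whether lincomycin acted differently on irx3-2 and Col-0 was tested as an interaction, the change in irx3-2 minus the change in Col-0, and 0 of the 10 genes passed in limma, edgeR or DESeq2, where 0.657% of all genes tested were called by limma. At an unadjusted p below 0.05 there were 2, LOX4 and AOS, a count given without the share of all genes at that level, so it shows no excess. The interaction of AOS was −0.87 ± 0.27 (limma adjusted p = 0.191) and that of LOX4 was −1.25 ± 0.46 (adjusted p = 0.280). That LOX4 and OPR3 were called in irx3-2 and not in Col-0 is therefore no shown difference between the genotypes. The interactions of the other 8 genes were between −0.48, for AOC2, and 0.27, for AOC1.

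The genes around the synthesis steps were counted in 5 lists. Enzymes and lipases that supply linolenic acid were mostly lower on lincomycin: of the 8 genes tested out of 10, 7 fell and 1 rose in irx3-2, where 33.8% of all genes were called in either direction, and 6 fell and 2 rose in Col-0, where 29.2% were. The median log2 change was −1.25 in irx3-2 and −1.13 in Col-0. The plastid desaturases FAD7 and FAD8, which make linolenic acid in plastid lipids, changed by −1.32 ± 0.10 and −1.35 ± 0.14 in irx3-2 and by −1.45 ± 0.10 and −1.88 ± 0.14 in Col-0. FAD3, which makes it in the endoplasmic reticulum, went the other way, at 0.77 ± 0.12 in irx3-2 and 0.86 ± 0.12 in Col-0 (limma adjusted p = 0.000637 and 0.000340). PLIP1, a plastid lipase, changed by −3.22 ± 0.46 in irx3-2 and −3.50 ± 0.46 in Col-0. PLIP2, a lipase gene of the same list, was called higher in Col-0, with a log2 change of 0.55. In irx3-2 it was called lower, with mean normalized counts of 330 on lincomycin against 462 on MS. The interaction passed for 1 gene of this list, where 0.657% of all genes tested were called, and the lowest interaction in it was −1.035. That count was 0 without a filter on low values and with a replicate block, and 2 with edgeR and with DESeq2. The call was also lost in most of the fits that left out 1 library. The lipases DAD1 and DGL had too few reads to be tested.

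Of the 5 genes of other oxylipin branches, 4 fell and 1 rose in irx3-2, and 3 fell and 1 rose in Col-0, where 33.8% of all genes tested were called in either direction in irx3-2 and 29.2% in Col-0. The irx3-2 count was 3 without irx3-2 lincomycin replicate 2 and with scaling by the total of nuclear genes. LOX1, a lipoxygenase that acts on another carbon of the fatty acid and lies outside the jasmonate route, rose by 1.93 ± 0.10 in irx3-2 and 1.29 ± 0.10 in Col-0 (limma adjusted p = 2.19e-07 and 5.70e-06). It had 4469 and 4187 normalized counts in irx3-2 on lincomycin against 1151 and 1124 in irx3-2 on MS, and 1987 and 1979 in Col-0 on lincomycin against 886 and 745 in Col-0 on MS. HPL1 is named for hydroperoxide lyase, a type of enzyme that competes with AOS for its substrate. It changed by −2.67 ± 0.66 in irx3-2 and −3.04 ± 0.66 in Col-0 (limma adjusted p = 0.0104 and 0.00579). The irx3-2 call was lost without either irx3-2 lincomycin library. Whether HPL1 gives an active enzyme in these plants was not tested.

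After OPR3, the side chain of its product is shortened by beta-oxidation in peroxisomes. Of the 10 genes of OPDA transport and beta-oxidation, 6 rose and 1 fell in irx3-2, and 5 rose and 0 fell in Col-0, where 15.8% of all genes tested were called higher in irx3-2 and 12.0% in Col-0. The median log2 change of the list was 0.65 in irx3-2 and 0.37 in Col-0, and the count in Col-0 was 3 without Col-0 lincomycin replicate 1. These beta-oxidation enzymes also break down other fatty acids. The acyl-CoA oxidase ACX1 rose by 1.15 ± 0.11 in irx3-2 and 0.76 ± 0.11 in Col-0, the multifunctional protein MFP2 by 1.88 ± 0.13 and 0.66 ± 0.13, and the thiolase KAT2 by 1.32 ± 0.10 and 0.50 ± 0.10. The gene that fell in irx3-2 was OPCL1, the ligase that activates the OPR3 product, at −0.99 ± 0.22 (limma adjusted p = 0.00577), and in Col-0 it was at −0.35 ± 0.22 (adjusted p = 0.275). With scaling by the total of nuclear genes OPCL1 was not called in irx3-2 (adjusted p = 0.0598). In the interaction test limma called 0.657% of all genes tested. For MFP2, KAT2 and KAT5 the interaction passed, at 1.22, 0.81 and 1.17 (limma adjusted p = 0.0194, 0.0276 and 0.0326), but it passed under only 9, 7 and 8 of 16 alternative settings. The interaction was lost, among others, without either Col-0 lincomycin library for all 3 genes, with adjusted p up to 0.154 for MFP2, 0.231 for KAT2 and 0.236 for KAT5 over the alternatives.

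Of 10 conjugation and turnover genes tested out of 12, 4 fell and 1 rose in irx3-2, and 2 fell and 0 rose in Col-0, where 18.0% of all genes tested were called lower in irx3-2 and 17.2% in Col-0. The share in Col-0 is thus near that of all genes, and only 1 gene was called there without a filter on low values and without any 1 of the 4 Col-0 libraries or the 2 irx3-2 lincomycin libraries. In irx3-2 the 5 calls became 2 with scaling by the total of nuclear genes and 3 under other alternatives, among them without a filter and without either Col-0 lincomycin library, irx3-2 lincomycin replicate 3 or irx3-2 MS replicate 2. The gene that rose in irx3-2 was IAR3, an amidohydrolase gene, at 0.44 (limma adjusted p = 0.0403), and it was called under 8 of 17 alternative settings. JAR1, which couples jasmonic acid to isoleucine to give the active hormone, changed by −0.78 ± 0.14 in irx3-2 and −0.67 ± 0.14 in Col-0 (limma adjusted p = 0.00155 and 0.00432). Scaled by the total of nuclear genes, JAR1 was not called in either genotype (adjusted p = 0.0586 and 0.369). Of 17 perception and response genes tested out of 20, 9 fell in irx3-2 and 6 in Col-0, and 0 rose in either, against the same 18.0% and 17.2% of all genes called lower. The count in Col-0 was 3 without Col-0 lincomycin replicate 1. The repressor genes JAZ1 and JAZ6, which are themselves induced by jasmonate, changed by −2.13 ± 0.35 and −1.95 ± 0.23 in irx3-2 and by −1.79 ± 0.35 and −1.64 ± 0.23 in Col-0. VSP1, a vegetative storage protein gene used as a jasmonate marker, was at 0 and 1.31 normalized counts in irx3-2 on lincomycin against 53.7 and 79.6 in irx3-2 on MS, and at 2.35 and 6.76 in Col-0 on lincomycin against 41.4 and 27.6 in Col-0 on MS. VSP1 passed in both genotypes (limma adjusted p = 0.000133 in irx3-2 and 0.0112 in Col-0), although in Col-0 the call was lost without Col-0 lincomycin replicate 1 or Col-0 MS replicate 2 (adjusted p up to 0.106). MYC2, the leading transcription factor of the response, had 0 reads in all 8 libraries. Its annotation overlaps that of another gene, and how such reads were counted is not given in the sources used here, so this 0 is not read as absence.

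**Figure D4:**
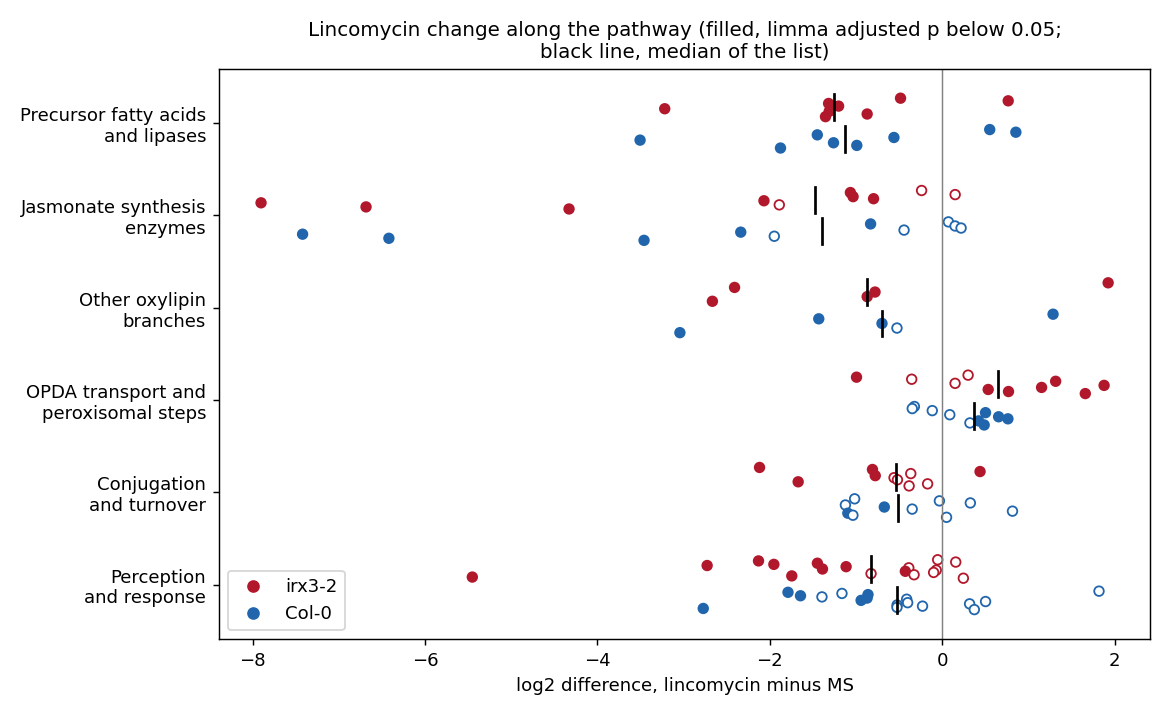
Log2 difference, lincomycin minus MS, of each tested gene in 6 lists along the pathway, in irx3-2 (upper row of each list) and Col-0 (lower row). Filled points passed limma's adjusted p of 0.05 and black lines are list medians, which are at −1.48 and −1.39 for the synthesis enzymes and at 0.65 and 0.37 for OPDA transport and peroxisomal steps.

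For each of the 10 genes the non-member with the most similar profile was sought among 20241 tested genes, as the smallest root mean square difference of log2 values centred over the 8 libraries. For LOX2 it was CAB2 (AT1G29920), a gene of the light-harvesting antenna, at 0.33, and for AOC2 it was RBCS2B (AT5G38420), a gene of the small subunit of Rubisco and 1 of the green tissue markers, at 0.31. AOC1 was nearest to OASB, a plastid cysteine synthase gene, at 0.12, LOX6 to CYP51G1, a sterol demethylase gene, at 0.0405, and OPR3 to ACI1 at 0.0511. CAB2 and RBCS2B belong to families of near-identical copies, whose reads the counting may have split. The 8 libraries fall into a lincomycin and an MS set, so any gene with a fall of similar size is near in this measure. Between members of the pathway the difference from LOX2 was 0.69 for AOC2 and 1.36 for AOS.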

How the data were processed

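RNA was sequenced from 8 libraries, 2 for each of 4 groups, which were taken from the labels. The submitters' processing notes name Trimmomatic, FastQC, the aligner TopHat2 (2.1.1), featureCounts, DESeq2 and the TAIR10 genome. The strand setting, the treatment of multiply mapped reads and the annotation version are not given in the sources used here. The authors deposited 4 tables with the same 8 columns of normalized counts, a signal that is the read count divided by 1 size factor per library. Further columns deposited by the authors hold, per the file headers, a log2 fold change with its standard error and DESeq2 p-values with and without adjustment. In 2 of the 4 tables the fold change runs the other way, and its sign was turned here.

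All values (100.0%) were whole multiples of 1 number per library to within 0.01, which gives the whole reads by division, and edgeR 4.0.16 with TMM and DESeq2 1.42.0 were run on them as alternatives. At an adjusted p of 0.05 edgeR called 6936 genes for lincomycin in irx3-2, 6266 in Col-0, 1465 between genotypes on lincomycin, 59 on MS and 190 for the interaction. The plan named limma-trend as the main test, with edgeR in its place if the deposited unit were whole counts. Since the deposited unit is a normalized count, limma-trend was used (limma 3.58.1 in R 4.3.3), on log2 of the value plus a pseudocount of 1. It was run on the 20251 genes that reached 10 normalized counts in 2 or more libraries, with 4 group means over 8 libraries, 4 residual degrees of freedom and Benjamini-Hochberg adjustment with a threshold of 0.05. Fold changes on this scale understate those of low genes. The fit was tested on simulated data. Normalized counts per kb of exon and upstream windows used the RefSeq annotation of TAIR10.1, in whose gene table all 88 listed genes were found; coding sequences were aligned with mafft 7.526.

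The 10 genes and the lists were chosen with earlier results of these data known. All 10 genes are named. From each other list, up to 3 genes with the largest called rise and fall for lincomycin were eligible to be named, and the interaction of KAT5, MYC2, DAD1 and DGL are given beyond that. Alternatives were other tools and scalings, pseudocounts of 0.5 and 5, no filter and a filter of 50, only the libraries compared, a replicate block and leaving out each library.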

Additional observations from a re-analysis of the deposited data

How the results depend on the processing

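Over the 17 alternatives (16 for the interaction) LOX2, AOS, AOC1 and AOC2 kept their lincomycin calls in both genotypes, and LOX3 kept its call in irx3-2. The other calls, LOX3 in Col-0 and LOX4 and OPR3 in irx3-2, depended on the setting as given above, and the cause was not tested. Leaving out 1 library gave 5 to 7 members called for lincomycin in irx3-2, 4 to 5 in Col-0, 0 to 2 between genotypes on lincomycin, and 0 on MS and for the interaction. Between the genotypes, edgeR called 1 member on lincomycin and 1 on MS, DESeq2 3 on MS, and a fit of only the libraries compared 1 on lincomycin.

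Counts over all genes were less stable. Leaving out 1 library gave 3828 to 7252 genes for lincomycin in irx3-2, 3300 to 7117 in Col-0, 116 to 1961 between genotypes on lincomycin, 16 to 903 on MS and 11 to 361 for the interaction. Scaled by the total of nuclear genes, lincomycin called 10886 genes in Col-0 (8900 higher and 1986 lower, against 2431 and 3490 in the main test) and 9944 in irx3-2 (7736 higher and 2208 lower, against 3197 and 3638). The same scaling gave 307 higher and 567 lower between genotypes on lincomycin, against 678 and 472, and 47 higher and 73 lower for the interaction, against 72 and 61. Without a filter the counts were 580 on lincomycin, 4 on MS and 29 for the interaction, against 1150, 44 and 133. With only the libraries compared they were 3311 on lincomycin and 0 on MS, and DESeq2 gave 136 on MS and 376 for the interaction.

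Groups compared share 1 replicate number, and deviations of 7 same-numbered pairs correlated between −0.137 and 0.126. The highest, between irx3-2 MS replicate 2 and Col-0 MS replicate 2, was above the threshold of 0.1 that had been set. With 2 libraries in each group, these values cannot settle whether same-numbered libraries share a batch. A fit with the replicate block called 6 members for lincomycin in irx3-2 and 4 in Col-0 and 0 between genotypes, and 337 genes on lincomycin, 18 on MS and 24 for the interaction. With the block LOX3 in Col-0 (−0.68, limma adjusted p = 0.145) and LOX4 in irx3-2 (−1.13, adjusted p = 0.0745) were not called. The difference on MS was then 0.00067 for LOX3 and −0.45 for AOC3, and the interaction of LOX6 was −0.11.

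Signs turned only in members that were not called. Scaled by the total of nuclear genes, the lincomycin change was 0.0613 for OPR3 in Col-0 and 0.16 for AOC4 in irx3-2, and the interaction was −0.10 for LOX6 and −0.0074 for AOC3. On lincomycin AOC3 differed between genotypes by −0.0188 with edgeR and −0.0028 with DESeq2. Its interaction was −0.25 with edgeR, −0.22 with DESeq2 and −0.12 with a pseudocount of 5, and that of LOX6 was −0.0239 with edgeR. Without 1 library the lincomycin change of AOC4 in Col-0 ran from −0.10 to 0.24. On lincomycin the genotype difference ran from −0.48 to 0.14 for AOS, −0.27 to 0.55 for AOC2, −0.71 to 1.46 for AOC3 and −0.31 to 0.11 for OPR3. On MS it ran from −0.0598 to 0.31 for AOC1, −0.26 to 0.90 for AOC3 and −0.0015 to 0.51 for OPR3. The interaction ran from −0.14 to 0.14 for LOX6 and −1.03 to 1.14 for AOC3. With coding length in place of exon length, an alternative chosen after seeing the data, the share of AOC4 was 80.9% in irx3-2 on lincomycin and 8.26% in Col-0 on MS. Depth limited AOC3 most, with 20 to 36 reads per group.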
